A study of Mus musculus with 6 samples.

Results

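The genes described here are 38 mouse genes of redox defence, measured in Th17 cells that had been cultured with or without desIgf1. They were chosen by name, for the glutathione system, the thioredoxin and peroxiredoxin system, and the targets and regulators of the transcription factor NRF2. All 38 were found among the 39179 genes of the count tables, and all 38 passed the filter on low counts. Expression was measured by RNA sequencing in 3 desIgf1 libraries and 3 control libraries. desIgf1 is a shortened form of the growth factor IGF1 with low affinity for the IGF-binding proteins.

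In both groups the starting cells were naive CD4+ T cells sorted from C57BL/6 mice that carried 3 reporters, human CD2 for Il17a, Thy1.1 for Ifng and GFP for Foxp3. For 5 days they were stimulated by anti-CD3 in solution at 5 µg/mL, on irradiated spleen cells from which CD4+ cells had been removed. The Th17 condition was set with TGF-β at 2.5 ng/mL and IL-6 at 20 ng/mL, while IL-4 and IFN-γ were each blocked by antibody at 10 µg/mL. The desIgf1 group also received desIgf1 at 30 ng/mL, and the control group did not. desIgf1 appears in the protocol text of every library, controls included, whereas the titles and the series design separate the groups, and the titles were followed. RNA came from cells that were positive for the Il17a reporter and negative for the Ifng and Foxp3 reporters. The labels do not say whether libraries of a group came from separate mice or cultures, so the spread behind each p-value is that of these libraries and may be technical.

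Activated T cells make hydrogen peroxide and superoxide in their mitochondria, and they depend on glutathione and thioredoxin to keep protein thiols reduced. Glutathione is made from cystine that is imported by the xCT transporter, is oxidised by peroxidases and is reduced again with NADPH. NRF2, held in the cytosol by KEAP1, moves to the nucleus under oxidative or electrophilic stress and binds antioxidant response elements in the promoters of many of these genes.

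With desIgf1, no redox gene passed the test, and most differed little between the groups. In edgeR's quasi-likelihood test 0 of 38 members had an adjusted p under 0.05, where 0% of the 13846 tested genes did. With the replicate number as a block, 0 of 38 passed as well, against 0.318% of all genes (44 genes). DESeq2 called 1 member, Idh1 (adjusted p = 0.0216), against 0.925% of the 22483 genes that it gave a p-value. edgeR with no filter on low counts called 0 members, against 0.0711% of 22504 genes. Both of these shares include genes of low count that the filter removes. The member with the largest difference was Idh1, which makes cytosolic NADPH, at 1.91 times the control level, and the member with the most counts was Txnip, the inhibitor of thioredoxin. At an unadjusted p under 0.05 there were 4 members higher with desIgf1, namely Idh1, Glrx, Fth1 and Prdx5, where 4.75% of all genes were higher, and 0 members lower, where 3.42% were.

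The size of the differences was small on the log2 scale. The median log2 fold change of the 38 members was -0.0018, beside -0.0052 over all tested genes, with 18 members higher and 20 lower. A log2 fold change smaller than 0.3 in either direction was seen in 33 members (86.8%), beside 71.3% of all genes. For 34 members (89.5%) the 95% interval of the difference lay within 1 log2 unit of no change, that is, inside a 2-fold change in either direction, beside 70.9% of all genes. The 4 exceptions were Slc7a11, Nqo1, Idh1 and Txnip. These intervals come from the spread of 3 libraries a group and are not adjusted for the number of genes.

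**Figure D1:**
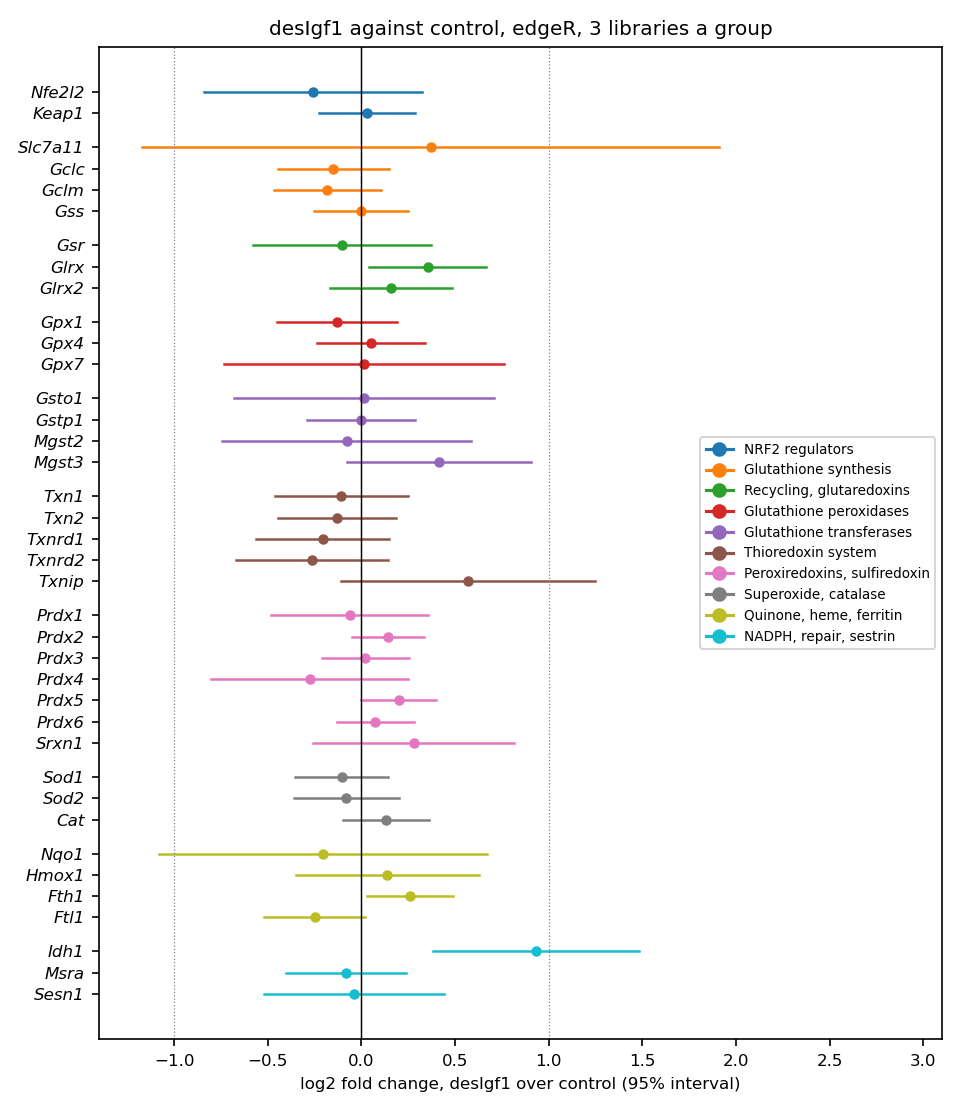
Log2 fold change of each of the 38 genes, desIgf1 over control, as a point with its 95% interval from edgeR (3 libraries a group), grouped by role, with dotted lines at 1 log2 unit of change. Most intervals include 0, and those of Idh1, Glrx, Fth1 and Prdx5 lie above it without passing the adjusted test.

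The libraries were deep enough for nearly all members. They held 34567899 to 47929948 counts in genes, and 2 of the 38 members, Slc7a11 and Nqo1, averaged below 1 CPM (on the counts-per-million scale) in both groups. The genes that define the labelled cell type were present, with 8 T cell markers summing to 5833.5 to 6314.9 CPM with desIgf1 and to 5649 to 6188.1 CPM in controls. Th17 markers (5 genes, among them Il17a of the sort gate) summed to 1421 to 1772 CPM with desIgf1 and to 1035 to 1220.5 CPM in controls, without overlap. Their part in the redox values was not tested. On the first principal component the desIgf1 and control libraries numbered 3 lay away from the rest (43.5% of the variance). The second component (27.0%) separated the groups without overlap.

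Other cells that the sort could hold matter here because red cells, macrophages and dendritic cells are rich in catalase, peroxiredoxin 2 or ferritin. Erythroid markers were at or near 0, with 3 of 6 at 0 counts in every library (Hbb-bt, Alas2 and Slc4a1) and a summed level of 0 to 0.0250 CPM with desIgf1 and 0 to 0.0658 CPM in controls. Macrophage and monocyte markers (8 genes, 0 of them at 0 in every library) summed to 150 to 177 CPM with desIgf1 and to 91.6 to 180 CPM in controls. Nearly all of this sum was Ctss, a lysosomal protease gene, at 136 to 167 CPM with desIgf1 and 79.2 to 175 CPM in controls. Lyz2 was at 7.64, 5.49 and 4.30 CPM with desIgf1, against 6.18, 4.88 and 1.40 CPM in controls, higher in each number. Cd68 was at 4.66, 7.76 and 4.55 CPM with desIgf1, against 4.85, 5.89 and 2.15 CPM in controls, higher in numbers 2 and 3 only. Neither Lyz2 nor Cd68 passed edgeR's test with or without the block. Csf1r, Adgre1, Cd14, Tyrobp and Fcer1g were each below 1 CPM in every library. Dendritic cell markers (8 genes, with Xcr1 and Siglech at 0) summed to 6.74 to 40.1 CPM with desIgf1 and to 2.26 to 16.3 CPM in controls, highest in the number 3 library of each group. Most of this sum was the chemokine gene Ccl22, at 5.81, 5.63 and 35.2 CPM with desIgf1, against 1.45, 2.09 and 13.5 CPM in controls, which passed edgeR's blocked test (log2 1.58 ± 0.18, adjusted p = 0.0496) and not the test without the block (adjusted p = 0.702). B cell markers (6 genes, 0 at 0 throughout) summed to 1.12 to 1.57 CPM with desIgf1 and 1.24 to 3.55 CPM in controls. NK and CD8 markers (6 genes, with Ncr1 at 0) summed to 9.09 to 18.9 CPM with desIgf1 and 5.83 to 13.9 CPM in controls. Most of this sum was Cd8b1, at 4.98, 10.2 and 10.9 CPM with desIgf1, against 3.22, 5.96 and 7.82 CPM in controls. Cd8b1 did not pass edgeR's test with or without the block (adjusted p = 0.188 and 0.677), and Cd8a reached at most 0.103 CPM. Neutrophil markers (6 genes, with Elane and Camp at 0) reached at most 0.190 CPM with desIgf1 and 0.716 CPM in controls. The groups overlapped for each of these 6 lists of other cell types, although the dendritic sum and the NK and CD8 sum were higher with desIgf1 in all 3 library numbers, and the part of these cells in the redox values was not tested. In bulk RNA, fewer cells of a type and less RNA per cell cannot be told apart.

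Because the NRF2 system acts through promoter elements, the 300-base windows around annotated start sites (250 bases before to 50 after) were searched for the core of the antioxidant response element, TGACNNNGC, on both strands. RefSeq (GRCm38.p6) gave 45 windows for 33 of the 38 members. Gclc, Gsr, Hmox1, Prdx6 and Msra had no window and were not searched. Elements outside these windows or with other letters were not searched for either, so a window without the core does not show that a gene lacks the element. The core was present in 6 of these 45 windows (13.3%), beside 12.4% of 32851 windows of all genes. The 6 genes were Nfe2l2, Gclm, Txnrd1, Prdx1, Srxn1 and Sod1. The E-box CACGTG was in 2 of 45 member windows (4.44%, Glrx2 and Prdx4) and in 7.15% of all windows, and no member window held both motifs. Exact letters alone were searched, so related letters such as CACGAG, which occur in the Txnip window, were not counted. The windows of 3 classical NRF2 targets that hold the core are printed with the core in capitals, as a match to letters only. The core starts 134 bases before the start of Gclm (chr3:122245307-122245606, plus strand), 133 bases before that of Prdx1 (chr4:116685349-116685648, plus strand) and 92 bases before a start of Txnrd1 (chr10:82858956-82859255, plus strand). It reads in the reverse orientation in all 3. The window at the upstream start of Idh1 (chr1:65186430-65186729, minus strand) is shown beside them because this gene differed most between the groups, and it holds neither motif.
Gclm: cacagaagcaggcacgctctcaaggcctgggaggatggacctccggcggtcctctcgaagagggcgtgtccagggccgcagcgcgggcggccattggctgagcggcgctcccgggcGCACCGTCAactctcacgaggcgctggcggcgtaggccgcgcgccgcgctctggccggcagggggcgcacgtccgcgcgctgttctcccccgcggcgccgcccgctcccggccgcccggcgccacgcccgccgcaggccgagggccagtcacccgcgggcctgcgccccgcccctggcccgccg
Prdx1: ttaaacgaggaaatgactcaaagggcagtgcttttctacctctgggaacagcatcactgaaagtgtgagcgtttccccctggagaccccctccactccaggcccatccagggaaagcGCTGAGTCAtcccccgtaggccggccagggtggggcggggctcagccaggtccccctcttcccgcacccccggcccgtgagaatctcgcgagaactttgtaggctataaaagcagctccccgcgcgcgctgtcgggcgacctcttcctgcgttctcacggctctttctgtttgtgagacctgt
Txnrd1: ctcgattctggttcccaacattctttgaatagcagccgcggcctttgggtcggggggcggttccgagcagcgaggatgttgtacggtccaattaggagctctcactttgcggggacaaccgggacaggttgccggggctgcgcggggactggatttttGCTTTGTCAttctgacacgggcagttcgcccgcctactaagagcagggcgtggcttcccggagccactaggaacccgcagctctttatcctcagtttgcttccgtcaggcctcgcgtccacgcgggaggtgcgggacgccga
Idh1: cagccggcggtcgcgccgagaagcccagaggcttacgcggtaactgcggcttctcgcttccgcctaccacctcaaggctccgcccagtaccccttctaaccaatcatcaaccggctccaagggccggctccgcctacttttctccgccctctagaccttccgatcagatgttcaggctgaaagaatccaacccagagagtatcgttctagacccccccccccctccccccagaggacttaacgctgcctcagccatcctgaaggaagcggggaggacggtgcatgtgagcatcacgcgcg

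Of the 6 genes with a core in their window, 1 had a positive log2 fold change and 5 had negative ones. Srxn1 was at 0.28, and the others were at -0.06 for Prdx1, -0.11 for Sod1, -0.18 for Gclm, -0.21 for Txnrd1 and -0.26 for Nfe2l2. None of the 6 passed the test, with adjusted p-values of 0.688 to 0.933 in edgeR's quasi-likelihood test.

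Levels were compared between genes per length, as transcripts-per-million (TPM) values over all 6 libraries. The length was that of all annotated exons of a gene combined, which can far exceed its longest coding transcript. It was 3970 bases against 641 for Sod1, 3469 against 1494 for Fth1 and 3123 against 2827 for Txnip. The order of the levels depends on this choice of length. The median member stood at the 71.0 percentile of tested genes, and 15 of 38 members were above 100 TPM. Txnip was highest at 1027 TPM, followed by Gpx1 at 648 TPM, Txn1 at 604 TPM and Fth1 at 502 TPM. The 6 peroxiredoxins ranged from 268 TPM for Prdx2 to 113 TPM for Prdx4, with Ftl1 (200 TPM), Sod1 (150 TPM) and Cat (137 TPM) within that range. At the other end, the inducible NRF2 target Nqo1 was at 1.72 TPM and the cystine transporter Slc7a11 at 0.147 TPM. Some levels count only part of the transcript, because reads that match more than 1 place were left out of the counts. Of the 50-base words of the longest coding transcript, 78.9% for Ftl1, 62.3% for Gstp1, 61.7% for Gpx4, 23.1% for Sod1 and 10.9% for Prdx1 also occur in transcripts of other genes, while 24 of the 38 members share none. Such sharing makes the levels of the first 3 uncertain, beside the effect of the choice of length on any member.

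**Figure D2:**
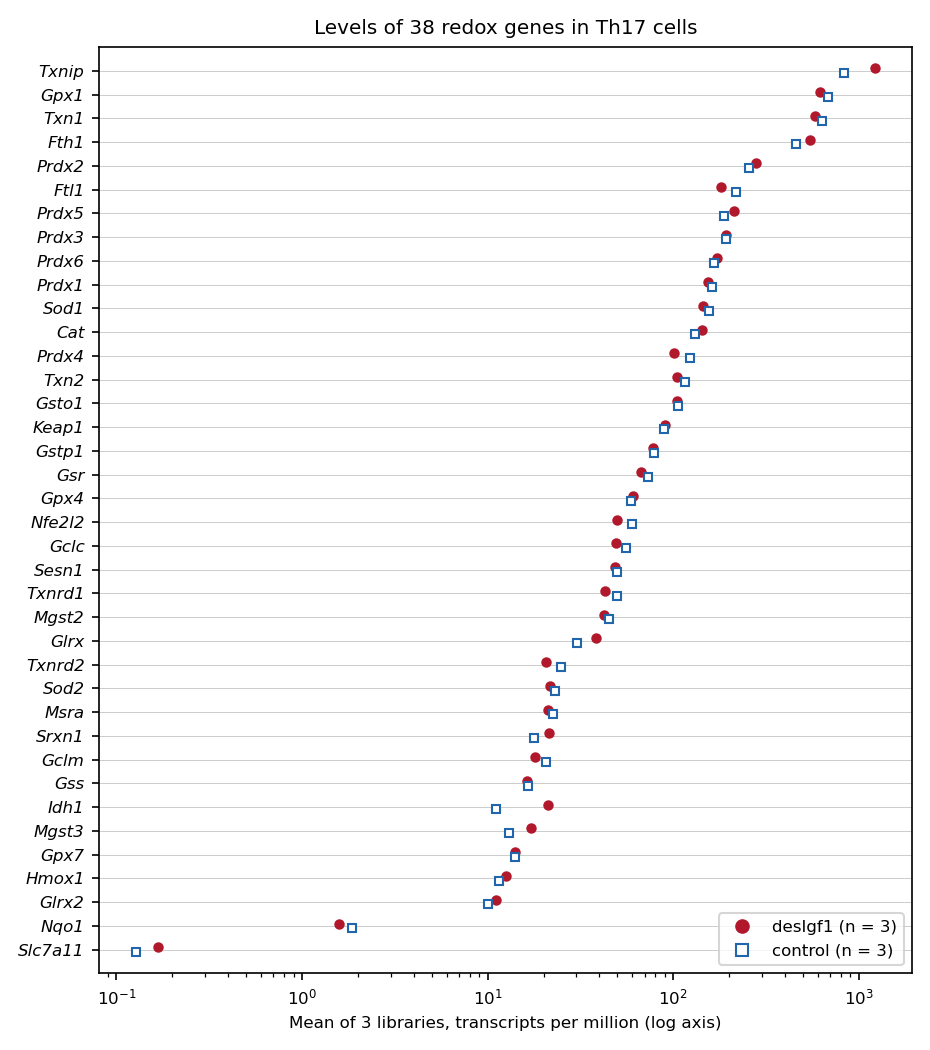
Mean level of each of the 38 genes in TPM on a log axis, with filled circles for desIgf1 and open squares for control (3 libraries each), ordered by the mean of all 6 libraries. On combined exon lengths the order runs from Slc7a11 at 0.147 to Txnip at 1027 TPM, and the symbols of the groups lie apart most clearly for Idh1.

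The regulators came first in the pathway and did not differ beyond the spread. Nfe2l2, the gene of NRF2, was at 61.6, 48.4 and 35.5 CPM in desIgf1 libraries 1 to 3, against 76.3, 50.5 and 47.0 CPM in controls 1 to 3. The groups overlapped, although the desIgf1 library was the lower in each of the 3 numbers. Its log2 fold change was -0.26 ± 0.25 (SE), with an edgeR adjusted p of 0.775, and 0.354 with the block. Keap1, whose protein holds NRF2 for degradation, was at 112, 106 and 109 CPM with desIgf1, against 112, 116 and 92.8 CPM in controls. Its log2 fold change was 0.03 ± 0.11 (adjusted p = 0.951), with a 95% interval of -0.23 to 0.29. Exons of an antisense gene cover 10.9% of the exon length of Keap1. The strand setting of the counting is not given in the sources used here, although the library kit was stranded and the deposited names carry the word reverse. Counted strand by strand, reads of an antisense gene would not add to a member. The same holds for the antisense overlaps of other members given below.

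Hmox1 and Nqo1, the targets most often read as a sign of NRF2 activity, were low in both groups. Hmox1, which breaks down heme, was at 5.08, 6.41 and 5.44 CPM with desIgf1, against 5.04, 5.82 and 4.52 CPM in controls, a log2 fold change of 0.14 ± 0.21 (adjusted p = 0.865). Nqo1, a quinone reductase, was at 0.726, 0.499 and 0.682 CPM with desIgf1, against 0.548, 0.633 and 1.03 CPM in controls. Its groups overlapped, and at this depth the 95% interval of its log2 fold change, -1.08 to 0.67, still holds a 2-fold fall. Srxn1, sulfiredoxin, which restores over-oxidised peroxiredoxins, averaged 15.5 ± 2.45 CPM with desIgf1 and 12.8 ± 3.32 CPM in controls (SD, n = 3 each).

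Genes of glutathione synthesis were close to level. Gclc and Gclm, the catalytic and modifier subunits of the rate-limiting ligase, averaged 48.0 ± 5.10 and 29.3 ± 3.68 CPM with desIgf1, against 53.3 ± 5.73 and 33.2 ± 0.715 CPM in controls (SD, n = 3 each). Their log2 fold changes were -0.15 ± 0.13 and -0.18 ± 0.12 (adjusted p = 0.737 and 0.688). Within a library the counts of Gclc were 1.64 ± 0.0340 times those of Gclm with desIgf1 and 1.60 ± 0.161 times in controls. Gss, which adds the final glycine, was at 24.8 ± 1.08 CPM with desIgf1 and 24.8 ± 0.581 CPM in controls. Slc7a11, the light chain of the xCT transporter, had 33, 20 and 24 counts in desIgf1 libraries 1 to 3, against 22, 34 and 3 counts in controls, too few to place its difference more narrowly than -1.17 to 1.91 on the log2 scale. Slc3a2, the partner chain, which also serves other transporters, was measured in the wider list and had a log2 fold change of -0.04 ± 0.09 (adjusted p = 0.909).

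Glutathione reductase and the glutaredoxins differed in direction. Gsr, which reduces oxidised glutathione with NADPH, was at 51.9, 52.5 and 39.1 CPM with desIgf1, against 58.6, 58.2 and 37.2 CPM in controls (log2 -0.10 ± 0.20, adjusted p = 0.902). The number 3 library was the lowest of each group. Glrx, the cytosolic glutaredoxin that removes glutathione from proteins, was at 52.5, 55.1 and 56.5 CPM with desIgf1, against 40.9, 50.5 and 37.0 CPM in controls. All 3 desIgf1 libraries lay above all 3 controls. The log2 fold change was 0.35 ± 0.13, with an adjusted p of 0.565, or 0.279 in the blocked fit. The blocked fit called it without the number 2 libraries (0.49, adjusted p = 0.027), where 4.42% of all genes were called. That fit had fewer residual degrees of freedom than the 2 of the full blocked fit. Glrx2, its mitochondrial relative, averaged 25.2 ± 0.619 CPM with desIgf1 and 22.6 ± 3.32 CPM in controls, with overlapping groups.

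The glutathione peroxidases showed no difference beyond the spread. Gpx1, the main cytosolic peroxidase, was at 224, 191 and 272 CPM with desIgf1, against 259, 235 and 259 CPM in controls (log2 -0.13 ± 0.14, adjusted p = 0.799). Gpx4, which repairs lipid peroxides and guards against ferroptosis, was at 26.1, 30.5 and 24.7 CPM with desIgf1, against 26.6, 25.0 and 26.7 CPM in controls. Its log2 fold change was 0.05 ± 0.12 (adjusted p = 0.918), with a 95% interval of -0.24 to 0.34. Gpx7, a peroxidase of the endoplasmic reticulum, averaged 4.69 ± 0.933 CPM with desIgf1 and 4.65 ± 1.75 CPM in controls.

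Of the glutathione transferases, Mgst3 alone had groups that did not overlap. Mgst3, a microsomal transferase with peroxidase activity, was at 4.41, 5.01 and 5.17 CPM with desIgf1, against 3.33, 3.57 and 4.04 CPM in controls. It was higher in each of the 3 numbers, and its log2 fold change was 0.42 ± 0.21 (adjusted p = 0.630, or 0.375 in the blocked fit). Mgst2, which can also make leukotriene C4, was at 50.3, 44.5 and 26.3 CPM with desIgf1, against 57.7, 34.3 and 35.9 CPM in controls. Gsto1, an omega-class transferase, was at 38.9, 54.5 and 71.8 CPM with desIgf1, against 43.0, 42.7 and 77.8 CPM in controls, so that its number 3 library was the highest of each group. Gstp1, a pi-class transferase, averaged 30.9 ± 2.15 CPM with desIgf1 and 31.0 ± 3.20 CPM in controls.

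In the thioredoxin system Txnip had a positive log2 fold change and the other 4 members negative ones, none of them past the test. Txnip, which binds reduced thioredoxin and also restrains glucose uptake, was at 671, 1498 and 789 CPM in desIgf1 libraries 1 to 3, against 565, 704 and 725 CPM in controls 1 to 3. The desIgf1 library was the higher in each number, but the groups overlapped, and desIgf1 library 2 lay well above every other library. The log2 fold change was 0.57 ± 0.29 (adjusted p = 0.630, or 0.354 in the blocked fit). Without desIgf1 library 2 it was 0.13 (adjusted p = 0.9995). Exons of an antisense gene cover 19.4% of the exon length of Txnip. Arrdc4, the closest relative of Txnip among the arrestin-like proteins, was picked out after its values were seen and was also highest in desIgf1 library 2, at 5.06, 15.9 and 9.05 CPM with desIgf1, against 2.63, 4.25 and 8.05 CPM in controls (log2 1.01 ± 0.51, adjusted p = 0.630).

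Txn1, cytosolic thioredoxin, was at 151, 145 and 176 CPM with desIgf1, against 149, 207 and 152 CPM in controls (log2 -0.11 ± 0.15, adjusted p = 0.854). Its mitochondrial counterpart Txn2 averaged 113 ± 19.3 CPM with desIgf1 and 124 ± 7.74 CPM in controls. Txnrd1, the selenoenzyme that reduces thioredoxin in the cytosol, averaged 78.5 ± 13.8 CPM with desIgf1 and 90.6 ± 10.4 CPM in controls. Txnrd2, the mitochondrial reductase, was at 21.0, 21.7 and 27.4 CPM with desIgf1, against 23.7, 27.0 and 33.6 CPM in controls. It was the lower in each number, although the groups overlapped, with a log2 fold change of -0.27 ± 0.17 (adjusted p = 0.678, or 0.346 in the blocked fit).

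Of the peroxiredoxins, which clear much of the hydrogen peroxide of a cell, none passed the test, and Prdx5 and Prdx2 had groups that did not overlap. Prdx5, found in mitochondria, peroxisomes and cytosol, was at 113, 124 and 115 CPM with desIgf1, against 101, 102 and 103 CPM in controls, with no overlap. Its log2 fold change was 0.20 ± 0.09, with an adjusted p of 0.608, or 0.364 in the blocked fit. Exons of Trmt112 on the other strand cover 19.1% of the exon length of Prdx5. Prdx2, a cytosolic peroxiredoxin, was at 210, 233 and 219 CPM with desIgf1, against 195, 200 and 205 CPM in controls, again with no overlap (log2 0.14 ± 0.08, adjusted p = 0.652). Prdx3, of mitochondria, averaged 73.5 ± 1.92 CPM with desIgf1 and 72.5 ± 5.84 CPM in controls, and Prdx6, which also reduces phospholipid peroxides, 215 ± 12.0 CPM with desIgf1 and 204 ± 10.4 CPM in controls. Prdx1 averaged 121 ± 9.51 CPM with desIgf1 and 126 ± 32.0 CPM in controls, and Prdx4, of the secretory pathway, 55.1 ± 4.77 CPM with desIgf1 and 66.7 ± 22.6 CPM in controls. The wide control spread of Prdx1 and Prdx4 came from control library 2, at 161 and 92.1 CPM.

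Superoxide dismutases and catalase did not differ past the test. Sod1, the copper and zinc enzyme, averaged 148 ± 17.2 CPM with desIgf1 and 159 ± 3.60 CPM in controls (log2 -0.11 ± 0.11, adjusted p = 0.788). Sod2, the manganese enzyme of mitochondria, averaged 55.8 ± 2.60 CPM with desIgf1 and 59.0 ± 7.52 CPM in controls. Cat, catalase, averaged 96.2 ± 4.17 CPM with desIgf1 and 87.7 ± 6.56 CPM in controls (log2 0.13 ± 0.10, adjusted p = 0.703).

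The ferritin chains, which store iron and so limit the radicals that free iron makes, leaned in opposite directions. Fth1, the heavy chain with ferroxidase activity, was at 449, 532 and 483 CPM with desIgf1, against 405, 406 and 414 CPM in controls. All 3 desIgf1 libraries lay above the controls, and the log2 fold change was 0.26 ± 0.10 (adjusted p = 0.566, or 0.307 in the blocked fit). Ftl1, the light chain, was at 61.1, 60.3 and 67.3 CPM with desIgf1, against 76.5, 65.9 and 82.1 CPM in controls. It was the lower in each number with a slight overlap, and its log2 fold change was -0.25 ± 0.12 (adjusted p = 0.620, or 0.319 in the blocked fit). The counts of Fth1 were 7.35, 8.82 and 7.18 times those of Ftl1 with desIgf1, against 5.29, 6.16 and 5.04 times in controls. This ratio was looked at after both genes had been seen, and its exact two-sided permutation p of 0.1 is the smallest that 3 libraries against 3 can give. Most of the Ftl1 transcript is shared with other genes, as given above, and 26.5% of its exon length is covered by an antisense gene.

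Idh1 had the smallest p of the 38 members. Its product, cytosolic isocitrate dehydrogenase, makes NADPH and α-ketoglutarate, and the NADPH feeds glutathione and thioredoxin reductases as well as lipid synthesis. Idh1 (chromosome 1, 65158616 to 65186500, minus strand, GRCm38) was at 16.7, 18.1 and 10.4 CPM in desIgf1 libraries 1 to 3, against 7.48, 8.94 and 7.27 CPM in controls 1 to 3. Each desIgf1 library lay above every control library, and library 3 was the nearest to them. The log2 fold change was 0.93 ± 0.24, a 1.91-fold difference, with an adjusted p of 0.401 in edgeR's quasi-likelihood test. With the block it was 0.90 ± 0.18 (adjusted p = 0.130). DESeq2 called it at 0.93. The blocked edgeR fit called it without the number 2 libraries (0.84, adjusted p = 0.0262), where 4.42% of all genes were called. It also did so without the number 3 libraries (1.09, adjusted p = 0.00515), where 7.64% of all genes were called. Without the number 1 libraries that fit called 0 members and 0.513% of all genes. With a number left out, the fit had fewer residual degrees of freedom than the 2 of the full blocked fit. None of its words of 50 bases is shared with another gene, and no exon of another gene overlaps it.

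Msra, which repairs oxidised methionine, averaged 23.5 ± 2.90 CPM with desIgf1 and 24.8 ± 1.76 CPM in controls. Sesn1, a sestrin that senses leucine and has been linked to peroxiredoxin repair, averaged 49.6 ± 1.93 CPM with desIgf1 and 51.0 ± 15.9 CPM in controls, where control library 3 was the highest at 68.7 CPM.

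**Figure D3:**
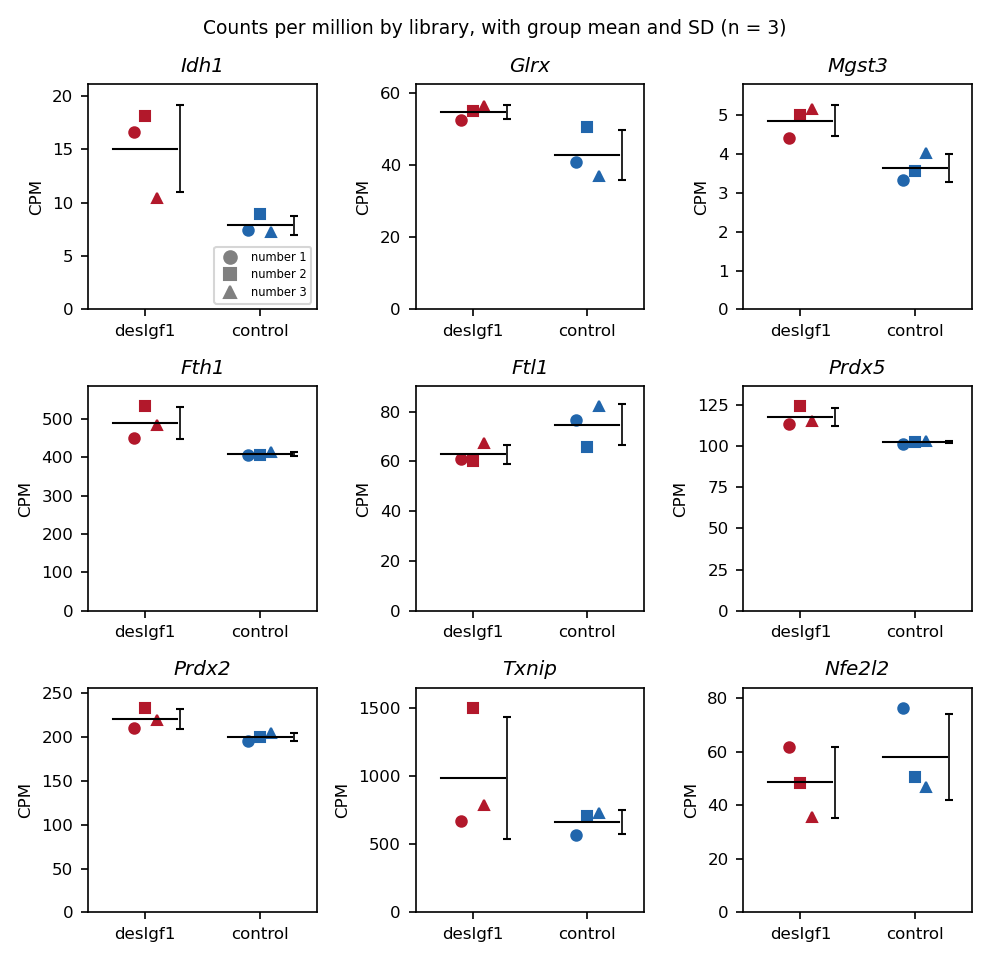
CPM of 9 members in each library, desIgf1 left and control right, with a symbol for each library number, a line at the group mean and a bar of 1 SD (n = 3). Idh1, Glrx, Mgst3, Fth1, Prdx5 and Prdx2 have all 3 desIgf1 libraries above all 3 controls, while Ftl1, Txnip and Nfe2l2 overlap.

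Separation of the groups was counted over all members. All 3 desIgf1 libraries lay above all 3 controls for 6 of 38 members (15.8%), the same 6 genes as above, where 7.31% of all tested genes did, and all 3 lay below for 0 members, where 6.18% of all genes did. With the libraries taken by number, 9 members (23.7%) were higher with desIgf1 in all 3 numbers, beside 20.9% of all genes, and 6 (15.8%) were lower in all 3, beside 17.2%. In the remaining 23 members the numbers differed in direction. With the block, 3 members were higher at an unadjusted p under 0.05 (Idh1, Glrx and Fth1), where 9.02% of all genes were, and 2 were lower (Ftl1 and Txnrd2), where 5.29% were. The median difference of the members was -0.0079 in number 1, -0.05 in number 2 and 0.07 in number 3 on the log2 scale.

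Library number was compared over both groups together. Averaged over both groups, the number 3 libraries differed from numbers 1 and 2 by more than 0.5 log2 units in 6 members, above in Gsto1 and Gpx7 and below in Nfe2l2, Gsr, Mgst2 and Slc7a11. Such a gap upwards was seen in 5.26% of members and 9.31% of all genes, and downwards in 10.5% of members and 10.1% of all genes, so the members' shares were below or near those of all genes. Number 3 was at the same end of both groups for Gsto1, Gpx7, Nfe2l2 and Gsr, but not for Mgst2, whose control library 2 was the lowest control, nor for Slc7a11, whose desIgf1 library 2 was the lowest of its group. In edgeR's test of the number with the group kept in the fit, 0 of 38 members passed, where 1.37% of all genes did, and the smallest adjusted p-values were 0.102 for Nfe2l2, 0.104 for Gsto1, 0.135 for Gsr and 0.218 for Mgst2. DESeq2's likelihood ratio test of the number called 5 members, namely Nfe2l2 (adjusted p = 0.00393), Gsto1 (8.16e-04), Gsr (0.0457), Txnip (0.0401) and Mgst2 (0.0262), where it called 4.90% of 22504 genes. With no filter on low counts edgeR called Nfe2l2 and Gsto1, where 3.08% of 22504 genes passed. Both of these shares include genes of low count that the filter removes. Nfe2l2 ran in the same order in both groups, highest in number 1 and lowest in number 3.

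**Figure D4:**
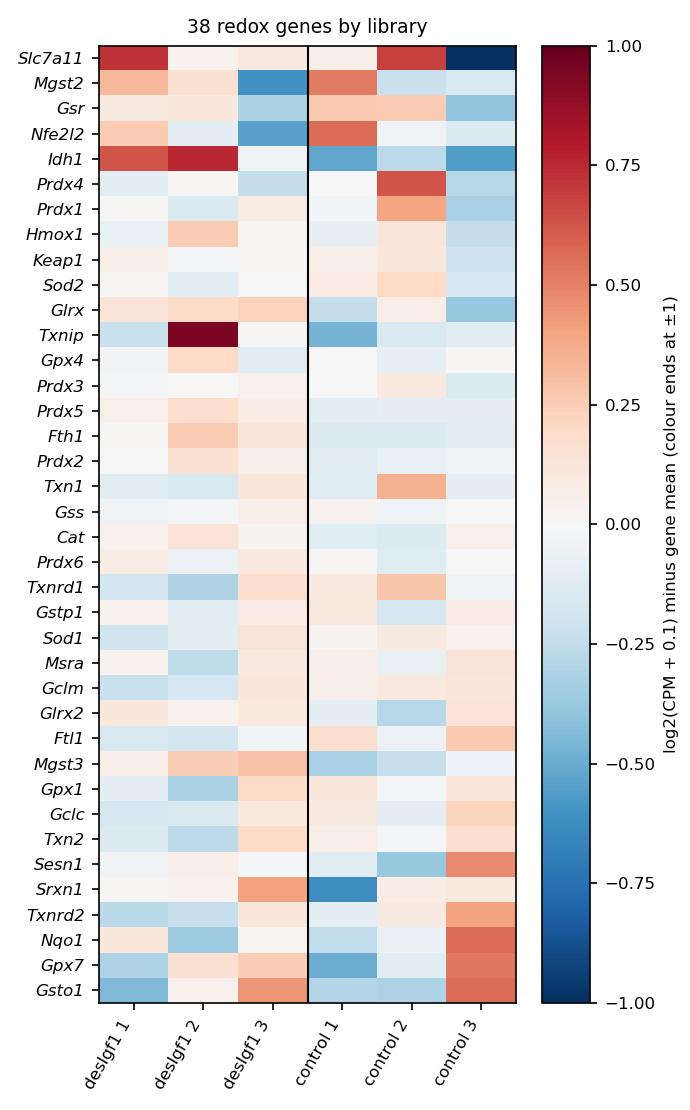
Level of each of the 38 members in each library, desIgf1 left of the line and control right of it, as log2(CPM + 0.1) minus the gene's mean over the 6 libraries, with colour ending at ±1. Genes run from those lowest in the number 3 libraries (top) to those highest there (bottom), and the largest departures are control library 3 for Slc7a11 and desIgf1 library 2 for Txnip.

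Of 82 further genes of the same pathways, chosen by function, 75 were tested and 0 passed in edgeR with or without the block. Without the block 3 of the 75 were higher (Chac1, Ncf1 and Ncf4) and 1 lower (Ccs) at an unadjusted p under 0.05. Over all tested genes 4.75% were higher and 3.42% lower. With the block 10 were higher and 1 lower at that level, beside 9.02% and 5.29% of all genes. The groups did not overlap for 7 genes with desIgf1 above and 1 below, beside 7.31% and 6.18% of all genes. The median log2 fold change of the list without the block was 0.03, with 41 genes above 0 and 34 below. The gene with the smallest p was Ccs, the chaperone that loads copper into Sod1. Ccs was at 46.5, 44.2 and 46.3 CPM with desIgf1, against 81.6, 65.5 and 81.6 CPM in controls, with all 3 desIgf1 libraries below. The fold change of Ccs on the log2 scale was -0.74 ± 0.12. edgeR gave adjusted p = 0.172, the blocked fit adjusted p = 0.0577, and DESeq2 called it (-0.74, adjusted p = 4.56e-05). The counts of Sod1 were 2.86, 3.23 and 3.60 times those of Ccs with desIgf1, against 1.91, 2.49 and 1.93 times in controls, a ratio looked at after the values were seen (exact two-sided permutation p = 0.1, the smallest possible).

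For this list the rule took the 3 higher and the 3 lower genes of smallest p in the blocked fit among those averaging at least 1 CPM. Besides Ccs these were Ncf4, Ncf1 and Ggt1 among the higher and Sesn2 and Bach2 among the lower. Chac1, which degrades glutathione and averaged below 1 CPM, was outside it and is given after its values were seen. It was at 0.726, 0.855 and 0.537 CPM with desIgf1, against 0.0219, 0.281 and 0.286 CPM in controls, without overlap (log2 1.86 ± 0.69, adjusted p = 0.560, or 0.284 in the blocked fit). Ncf1 and Ncf4, the p47 and p40 subunits of the phagocyte NADPH oxidase, which makes superoxide, averaged 59.6 ± 12.0 and 104 ± 7.24 CPM with desIgf1, against 35.3 ± 11.4 and 83.8 ± 12.9 CPM in controls, each without overlap. Their log2 fold changes were 0.76 ± 0.24 and 0.31 ± 0.13 (adjusted p = 0.505 and 0.608). Cybb, the catalytic subunit of the same oxidase, was at 2.20, 2.59 and 0.868 CPM with desIgf1, against 1.58, 1.27 and 0.916 CPM in controls, and was named after its values were seen. Ggt1, which cleaves extracellular glutathione, averaged 3.80 ± 1.52 CPM with desIgf1 and 2.23 ± 1.15 CPM in controls. Sesn2, a stress-induced sestrin, averaged 16.8 ± 2.86 CPM with desIgf1 and 20.2 ± 3.87 CPM in controls. Bach2, a repressor that competes for antioxidant response elements, averaged 387 ± 25.5 CPM with desIgf1 and 456 ± 60.8 CPM in controls (log2 -0.24 ± 0.12, adjusted p = 0.634).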

How the data were processed

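RNA was sequenced from 3 desIgf1 and 3 control Th17 libraries made with a stranded mRNA kit, per the labels' protocols. The deposited files hold raw read counts per gene. The submitters' processing notes name STAR 2.5.3 and HTSeq 0.7.2, with Trim Galore 0.4.5, DESeq2 1.18.1, SAMtools 0.1.18 and R 3.4.3, and build GRCm38. The sources used here do not give the annotation release or the strand setting, although the names of the deposited files carry the word reverse. The 5 summary lines of each file were left out of library sizes: entries with no feature were 13.5% to 15.7% and ambiguous ones 0.712% to 0.761% of unique entries.

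The members, gene lists and tests were chosen with earlier results of these data known. Counts were tested with edgeR 4.0.16 (R 4.3.3; TMM, filterByExpr minimum count 10, robust quasi-likelihood, group as the single term), with Benjamini-Hochberg adjustment over 13846 genes and a threshold of 0.05. SE is the log2 fold change divided by the square root of F. CPM used TMM library sizes, and TPM used GENCODE M21 exon lengths, which matched 37693 of 39179 genes. Exons of all transcripts of a gene were combined for the length. The titles number both groups 1 to 3, and the labels do not say whether same-numbered libraries belong together. Deviations from the group means correlated at 0.593, 0.318 and 0.555 between libraries of the same number (0.514, 0.291 and 0.546 on autosomes). The numbers were taken as pairs on this basis, and a replicate block was fitted as an alternative. However, deviations cancel out within a group, and number 3 lay apart in both groups. Positive values for numbers 1 and 2 can therefore arise without true pairing, and unlike numbers were not compared. Same-group libraries differed far beyond counting noise, with chi-square per degree of freedom of 40.5 to 130. Other alternatives were DESeq2 1.42.0, limma voom 3.58.1, other scalings and filters, and each library left out. Members named with values in every library were the 8 smallest p-values with and without the block, the 4 highest levels, the 4 smallest p-values for library number, and Keap1, Gpx4, Hmox1 and Nqo1. The script was tested on simulated data. One marker gene is not reported here.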

Additional observations from a re-analysis of the deposited data

How the results depend on the processing

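With the replicate number as a block, edgeR called 44 of all genes in place of 0 (1130 at an unadjusted p under 0.05 without the block), and it changed no member's call. DESeq2 called 208 genes, of them 1 member (Idh1) and 1 gene of the wider redox list (Ccs), and the fit with no filter on low counts called 16 genes, none a member. limma voom, both other scalings and a minimum count of 50, which left 36 members, called 0 genes. Leaving out 1 library at a time without the block called 0 genes. Leaving out the libraries of 1 number with the block called 72 to 1069 genes, 0 to 2 members (Glrx at an adjusted p of 0.027 and Idh1 without number 2, Idh1 without number 3) and 0 to 4 genes of the wider list (Ccs without number 2; Ccs, Ncf1, Chac1 and Arrdc4 without number 3). These fits with a number left out had fewer residual degrees of freedom than the 2 of the full blocked fit. For library number, DESeq2 called 5 members and the fit with no filter 2 (Nfe2l2 and Gsto1). The causes were not tested.

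Signs turned only near 0 for Gss (2.9e-05 with limma, 0.0039 with no filter), Gstp1 (0.00021 with the block, 0.0034 with limma, 0.0026 with no filter) and Sesn1 (0.0046 with the block, 0.018 with limma). With libraries left out, log2 fold changes spanned 0 for 17 members: Gpx4 -0.069 to 0.13, Gpx7 -0.20 to 0.35, Gsr -0.29 to 0.0045, Gss -0.063 to 0.039, Gsto1 -0.25 to 0.36, Gstp1 -0.086 to 0.048, Keap1 -0.062 to 0.12, Mgst2 -0.32 to 0.20, Msra -0.17 to 0.013, Nqo1 -0.47 to 0.11, Prdx1 -0.25 to 0.22, Prdx3 -0.059 to 0.087, Prdx4 -0.46 to 0.029, Sesn1 -0.21 to 0.25, Slc7a11 -0.097 to 1.36, Sod2 -0.19 to 0.047 and Txn1 -0.25 to 0.12. Idh1 stayed at 0.77 to 1.11. Slc7a11 had 3 counts in control library 3, against 22 and 34 in the other controls.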
